A study of Rattus norvegicus with 6 samples.

Results

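The genes described here are those for the proteins of the cytosolic ribosome in rat myocardium. Members were the protein-coding rows of the gene table whose symbol was Rpl or Rps followed by a number, with the stalk genes (Rplp0, Rplp1 and Rplp2) and numbered or lettered paralogs included. This gave 97 of 32623 rows, with 87 different symbols, and 95 of them were among the 13964 genes that entered the test.

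Myocardial RNA was sequenced from wild-type (WT) male rats, in 3 sham and 3 ischemia samples, each labelled 30 min. The protocol attached to all samples describes ventilated rats and a left thoracotomy. In the ischemia group, the left anterior descending coronary artery was then tied off. What was done in the sham operation is not detailed, and strain and age were not given in the sources used here. The labels do not say that each sample came from a separate animal, so the p-values measure only the spread between these samples, part of which may be technical.

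The cytosolic ribosome is built from a small subunit, which reads the mRNA, and a large subunit, which joins the amino acids. Its proteins are needed in nearly equal amounts, and their mRNAs are among the most abundant in most cells. Many of these mRNAs begin with a C followed by an unbroken run of pyrimidines, the terminal oligopyrimidine (TOP) tract, through which mTORC1 and Larp1 control their translation. Striated muscle also makes Rpl3l, a paralog that takes the place of Rpl3 in part of its ribosomes.

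Libraries held 68529126 to 79591989 counts, of which 15.4 to 21.4% were from the mitochondrial genome. Sham 2 stood apart in the chambers' genes. The atrial light chain Myl7 had an FPKM (fragments per kilobase of gene, scaled to library size) of 6530, 117 and 3541 in sham 1 to 3, and the ventricular light chain Myl2 had an FPKM of 366, 2795 and 346. Myl7 had an FPKM of 764 in ischemia 1 and at most 12.3 in ischemia 2 and 3, and Myl2 had 1315, 594 and 1238. Sham 1 held 26 counts of the Y-linked genes Ddx3y, Eif2s3y and Kdm5d, against 1772 to 4318 in the others, although all rats were labelled male. The count of calls is given below without each library, and the Rpl3l values without sham 2.

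The sequences around annotated start sites are of members described below in which the TOP tract was or was not found. Each runs 5′ to 3′ from 10 bases before the start to 20 from the start on, from RefSeq on build GRCr8. Capitals mark a C followed by at least 4 pyrimidines that begins within 5 bases of the start. The first 5 have such a tract. The last 4, Rpl3 and 3 paralogs, have none that begins there. As an annotated start can differ from the one used, this does not show that their mRNAs lack the tract.
Rplp0 (chr12:46718371-46718400, minus strand): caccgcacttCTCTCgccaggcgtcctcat
Rplp1 (chr8:71290853-71290882, minus strand): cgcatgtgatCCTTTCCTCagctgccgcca
Rpl10 (chrX:157205840-157205869, plus strand): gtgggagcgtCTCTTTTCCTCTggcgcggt
Rps27 (chr2:177964587-177964616, minus strand): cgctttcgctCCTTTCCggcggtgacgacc
Rps28 (chr7:15311314-15311343, minus strand): ccctgctcacgtgaCTCCTCTCCgctagat
Rpl3 (chr7:113507971-113508000, minus strand): gcctgctcgatctctatcggcggcgtgtgg
Rpl3l (chr10:14258436-14258465, plus strand): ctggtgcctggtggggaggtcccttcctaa
Rps27l (chr8:76443648-76443677, plus strand): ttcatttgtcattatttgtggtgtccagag
Rpl22l1 (chr2:113683186-113683215, plus strand): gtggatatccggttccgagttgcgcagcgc

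Ribosomal protein mRNAs took a larger share of the counts in ischemic than in sham myocardium. Summed over the members, the share of all counts was 2.17, 1.70 and 2.35% in sham 1 to 3, against 3.49, 3.65 and 3.45% in ischemia. The group means were 2.07% ± 0.334 and 3.53% ± 0.105 (SD, n = 3), a ratio of 1.70. The lowest ischemia sample lay above the highest sham sample. With mitochondrial genes left out of the total, the shares were 2.59, 2.16 and 2.77% against 4.27, 4.32 and 4.24%. In bulk tissue, fewer cells of a type and less RNA per cell cannot be told apart.

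Most members had higher values in ischemia, and part of them passed the test. Of 95 tested, 20 rose at an adjusted p under 0.05 and 0 fell in edgeR's quasi-likelihood test. This was 21.1% of the members, where 5.18% of all tested genes were called higher and 1.53% lower. The log2 fold change was above 0 in 91 members and below 0 in 4, and it was above 0 in 49.9% of all tested genes. Its median was 0.68, a fold of 1.60, with an interquartile range from 0.55 to 0.83, and over all tested genes the median was near 0, with an interquartile range from -0.56 to 0.57. In 82 members, or 86.3%, every ischemia sample was above every sham sample in TMM-scaled counts, which held for 22.0% of all tested genes. The opposite order held for 0 members and 19.1% of all tested genes, and the groups overlapped in 13.

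The calls changed when a sample was left out, and the direction did so in few members. With edgeR, 0 members passed without sham 1, sham 2, sham 3 or ischemia 3, 5 passed without ischemia 2, and 17 without ischemia 1. In these 6 fits, 87 to 92 of the 95 members had a log2 fold change above 0, against 91 in the full fit, and the median ranged from 0.64 to 0.71. In the full fit, 73 members had an unadjusted p under 0.05 in the direction of higher values and 0 in the other, where 18.2% of all tested genes were higher at that threshold. DESeq2 called 71 higher and 0 lower, where it called 14.8% of all tested genes higher.

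**Figure D1:**
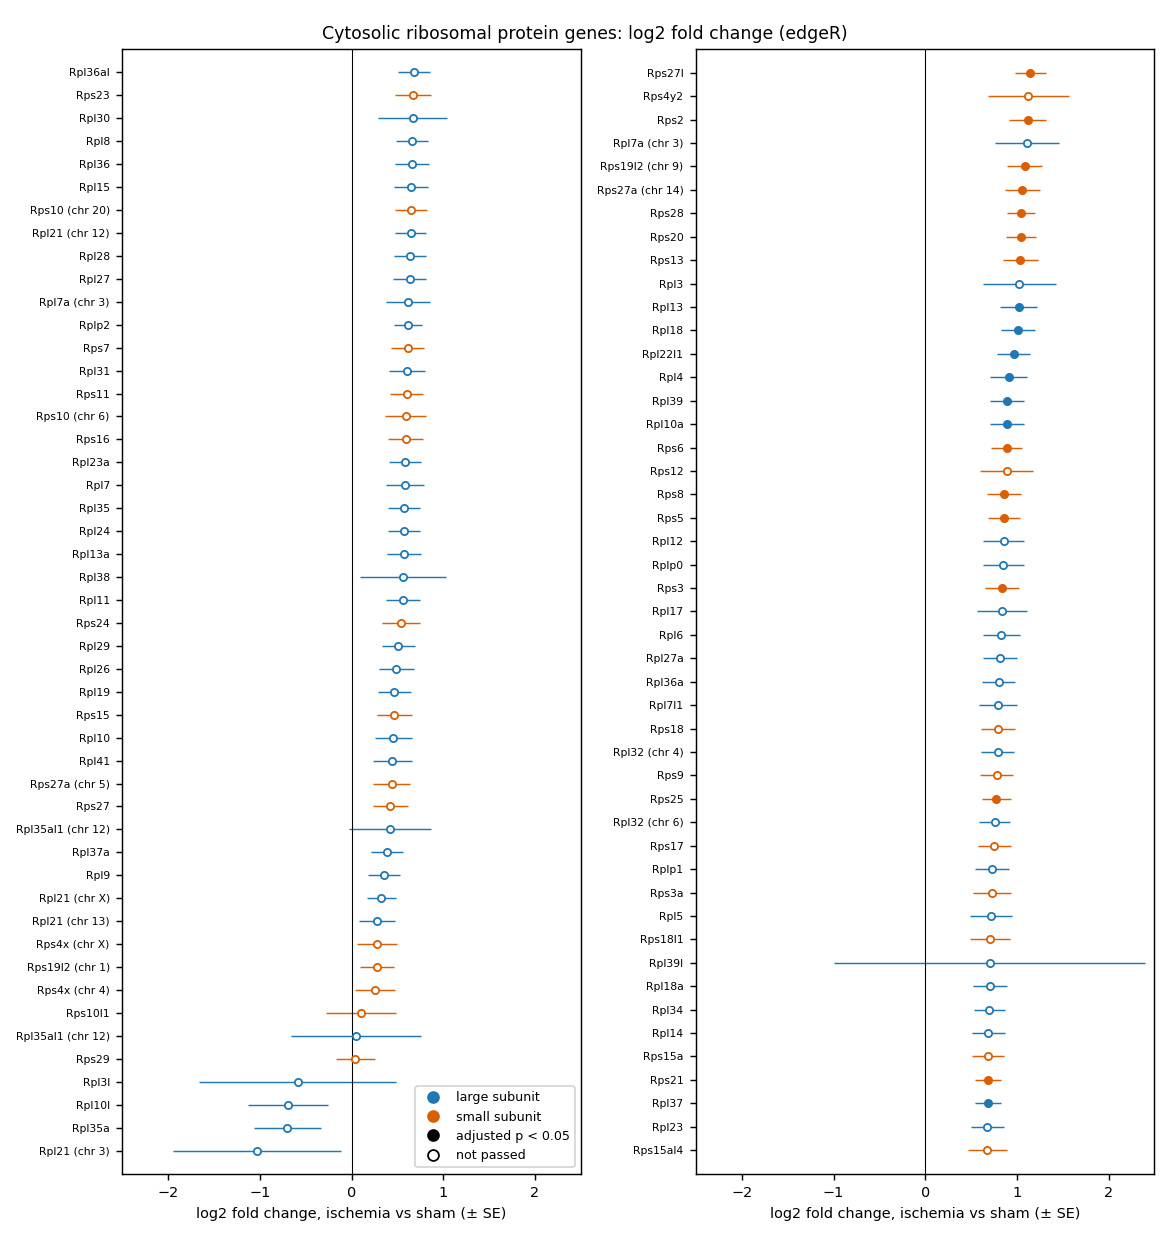
Log2 fold change of ischemia against sham (x axis) for each of the 95 tested ribosomal protein genes (y axis), with bars for the standard error of the edgeR estimate. 91 genes lie right of 0, and the 20 filled points passed an adjusted p of 0.05.

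Samples of a group lay close together. The median over members of the log2 ratio to the sham mean, in TMM-scaled counts, was -0.052, -0.030 and 0.082 in sham 1 to 3. In ischemia 1 to 3, it was 0.67, 0.61 and 0.72. The distance between the groups was thus larger than the spread within them (SD 0.064). In deposited FPKM, which keep the differences in library composition, the medians over the 73 members at a mean FPKM of 100 or more ran to 0.046, -0.25 and 0.19 for the sham samples, against 0.76, 0.83 and 0.73 for ischemia.

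**Figure D2:**
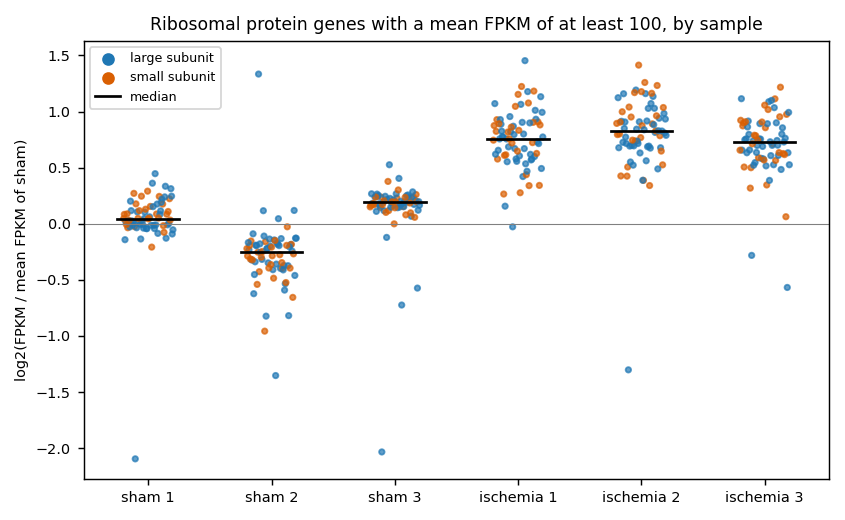
Log2 ratio of FPKM to the sham mean (y axis) for the 73 ribosomal protein genes at a mean FPKM of 100 or more, in each of the 6 samples (x axis), colored by subunit, with a bar at the median. The sham medians run from -0.25 to 0.19 and the ischemia medians from 0.73 to 0.83, and the points far below or above the rest in sham 1, 2 and 3 and ischemia 2 include Rpl3l.

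Genes of both subunits passed the test. Of 37 tested genes of the small subunit, 13 rose, 37 had a log2 fold change above 0, and the median was 0.71. Of 58 genes of the large subunit, 7 rose, 54 were above 0, and the median was 0.65. The difference between the subunits was not tested.

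The member with the highest log2 fold change was Rps27l, a paralog of Rps27 known as a p53 target. It had an FPKM of 36.0, 25.3 and 39.6 in sham and 70.9, 83.1 and 80.5 in ischemia (log2 fold change 1.15 ± 0.17 (SE), edgeR adjusted p = 0.0298). Its widely expressed counterpart Rps27 was far more abundant, with an FPKM of 821, 757 and 947 against 1255, 1131 and 1195. All 3 ischemia values of Rps27 were above those of sham, and its log2 fold change of 0.42 ± 0.19 did not pass (edgeR adjusted p = 0.171).

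Rps28, a small protein near the mRNA exit of the small subunit, had an FPKM of 244, 205 and 261 in sham and 527, 535 and 493 in ischemia. Its log2 fold change was 1.05 ± 0.15 (edgeR adjusted p = 0.0294). Rps20, a protein of the head of the small subunit, had 237, 180.2 and 269.8 against 483, 513 and 496, and rose by 1.05 ± 0.16 on the log2 scale (edgeR adjusted p = 0.0314). The groups were far apart for both genes.

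Rps2, which lies at the mRNA entry, had an FPKM of 378, 392 and 427 in sham and 906, 937 and 928 in ischemia (log2 fold change 1.12 ± 0.20, edgeR adjusted p = 0.0377). Rps3, also at the entry channel, had 462, 350.0 and 493 against 828, 815 and 811 (0.84 ± 0.18, edgeR adjusted p = 0.0494). For both, the lowest ischemia value lay well above the highest sham value. Rps13, an early-binding protein of the small subunit, had an FPKM of 52.6, 45.2 and 67.4 against 128, 104.9 and 122 (1.03 ± 0.19, edgeR adjusted p = 0.0384), from a row on chromosome 3, where RefSeq has the gene on chromosome 1.

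Rps6, the substrate of the S6 kinases downstream of mTORC1, had an FPKM of 277, 225 and 310.2 in sham and 498, 555 and 532 in ischemia. It rose by 0.89 ± 0.17 on the log2 scale (edgeR adjusted p = 0.0418). These are mRNA levels, and the phosphorylation of the protein was not measured here.

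In the large subunit, Rpl18 had an FPKM of 293, 283 and 356 in sham and 703, 653 and 637 in ischemia (log2 fold change 1.01 ± 0.19, edgeR adjusted p = 0.0382). Rpl39, a short protein lining the exit tunnel of the nascent chain, had 28.8, 23.4 and 34.8 against 53.2, 65.8 and 52.1 (0.90 ± 0.19, edgeR adjusted p = 0.0455). Both rose, with no overlap between the groups. The row of Rpl39 lay on chromosome 14, and RefSeq has the gene on chromosome X.

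The stalk proteins Rplp0, Rplp1 and Rplp2 recruit the elongation factors. Rplp0, the most abundant member in ischemia 1 and 3, had an FPKM of 910, 831 and 1014 in sham and 1919, 1641 and 1703 in ischemia (log2 fold change 0.85 ± 0.22, edgeR adjusted p = 0.0659). Rplp1 had a log2 fold change of 0.73 ± 0.19 (edgeR adjusted p = 0.0621) and Rplp2 one of 0.61 ± 0.15 (edgeR adjusted p = 0.0615). The groups did not overlap for any of the 3. None passed with edgeR, and DESeq2 called all 3 higher.

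Several other well-known members did not pass with edgeR, while DESeq2 called Rpl5, Rpl11, Rpl13a and Rpl10 higher. Rpl5 and Rpl11, which bind Mdm2 and so can stabilize p53, had log2 fold changes of 0.71 ± 0.23 (edgeR adjusted p = 0.0966) and 0.56 ± 0.18 (edgeR adjusted p = 0.102). Rpl13a, part of a complex that silences inflammatory mRNAs, had 0.57 ± 0.18 (edgeR adjusted p = 0.0962). Rpl10, a late-joining large subunit protein, had an FPKM of 806, 527 and 715 in sham and 1034, 958 and 954 in ischemia (0.46 ± 0.20, edgeR adjusted p = 0.171). Its groups did not overlap.

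Rpl41, the shortest ribosomal protein and the most abundant member in sham 1 and 3, had an FPKM of 1156, 834 and 1333 in sham and 1684, 1449 and 1584 in ischemia. Its log2 fold change was 0.44 (edgeR adjusted p = 0.198). Rpl38 was split within groups, with an FPKM of 181, 158 and 97.8 in sham and 319, 288 and 98.2 in ischemia (0.56 ± 0.47, edgeR adjusted p = 0.426). Ischemia 3 and sham 3 were the lowest samples of their groups, at nearly equal levels.

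**Figure D3:**
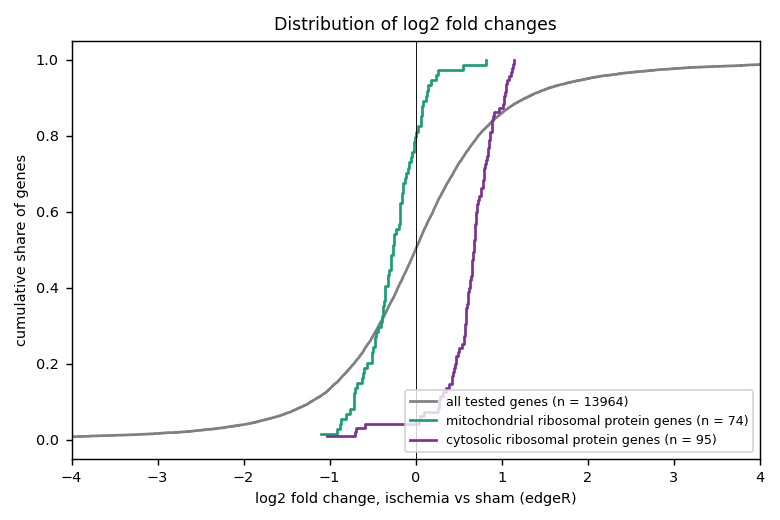
Cumulative share of genes (y axis) by log2 fold change of ischemia against sham (x axis) for the 95 cytosolic ribosomal protein genes, the 74 mitochondrial ribosomal protein genes and all 13964 tested genes. The medians are 0.68 for the cytosolic genes and -0.27 for the mitochondrial genes.

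Proteins of the mitochondrial ribosome, which translates the few mRNAs of the mitochondrial genome, did not pass with edgeR. Of 74 tested, 0 rose and 0 fell by edgeR's adjusted p, with 1 higher and 5 lower at an unadjusted p under 0.05, and DESeq2 called 1 higher and 2 lower. Their median log2 fold change was -0.27, 15 were above 0, and all ischemia samples were above all sham samples in 1 gene and below them in 6, against 22.0% and 19.1% of all tested genes. Other abundant or short genes had medians closer to 0 than the members. The 657 other genes at a mean FPKM of 100 or more had a median of -0.15, and 8.07% of them rose. The 2047 other genes with an implied length under 1000 bases had a median of 0.085, and 4.59% of them rose. These groups were compared by counts and medians, with no test between them.

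Muscle paralog Rpl3l and its ubiquitous counterpart Rpl3 varied widely between samples. Rpl3 had an FPKM of 130.3, 39.7 and 134 in sham and 189.7, 227 and 215 in ischemia (log2 fold change 1.03 ± 0.40, edgeR adjusted p = 0.136). Rpl3l had 26.9, 289.7 and 28.1 in sham and 128, 46.6 and 94.5 in ischemia (-0.59 ± 1.07, edgeR adjusted p = 0.719). Sham 2 was thus the lowest sample for Rpl3 and the highest for Rpl3l.

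As a share of the summed FPKM of Rpl3 and Rpl3l, Rpl3l made up 17.1, 88.0 and 17.3% in sham, against 40.3, 17.1 and 30.5% under ischemia. The groups overlapped, with means of 40.8% ± 40.8 and 29.3% ± 11.7 (SD, n = 3). The two-sided exact permutation test gave p = 0.8, where 3 against 3 cannot go below 0.1. Without sham 2, the difference turned from -11.5 to 12.1 percentage points and the log2 fold change of Rpl3l from -0.59 to 1.75 (edgeR adjusted p = 0.118), while that of Rpl3 moved to 0.68. Sham 2 was also the sham sample with the lowest Myl7 and the highest Myl2, and the part of the chambers in the Rpl3l values was not tested.

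**Figure D4:**
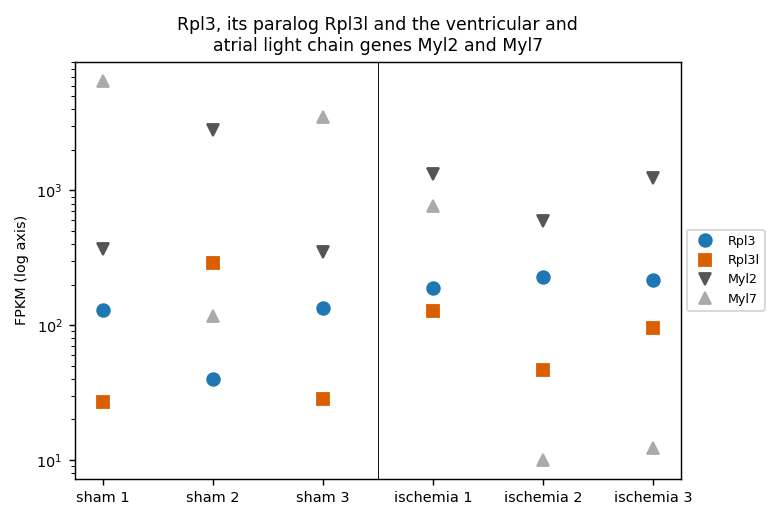
FPKM of Rpl3, Rpl3l and the light chain genes Myl2 and Myl7 in each of the 6 samples on a log axis. Rpl3l exceeds Rpl3 in sham 2 (289.7 against 39.7) and lies below it in the other 5 samples.

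Other paralogs gave mixed values. Rpl22l1 had an FPKM of 39.3, 25.6 and 34.9 in sham and 58.8, 76.6 and 69.5 in ischemia, and rose by 0.96 ± 0.18 on the log2 scale (edgeR adjusted p = 0.0387). Its counterpart Rpl22 was not analysed here. Rpl7l1 and Rpl7 had log2 fold changes of 0.79 and 0.58, and Rpl36a and Rpl36al of 0.80 and 0.68. None of these 4 passed with edgeR, and DESeq2 called all 4 higher.

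Rps4y2 had an FPKM of 10.7, 10.8 and 13.7 against 18.4, 17.0 and 44.6. Its log2 fold change of 1.13 ± 0.45 did not pass (edgeR adjusted p = 0.141) and was 0.46 without ischemia 3. The rows of its counterpart Rps4x on chromosomes X and 4 had log2 fold changes of 0.27 and 0.26 (edgeR adjusted p = 0.396 and 0.431). Rpl10l, a paralog best known from testis, had 7.29, 8.98 and 5.23 against 3.51, 4.15 and 6.68 with overlapping groups (-0.69 ± 0.44, edgeR adjusted p = 0.300). Rpl39l was near the limit of detection, with 0 to 55 counts a library. Of the 2 members that were not tested, Rplp0l1 had 0 counts in every library and Rpl30l1 had 2 to 12.

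Ribosomal protein genes have many near-identical copies between which reads can be split, and the treatment of such reads was not given. Of the 95 tested rows, 75 lay on the chromosome that RefSeq gives for the symbol, 16 on another chromosome, and 4 had a symbol without a RefSeq entry. The 16 rows include the only row of Rps13, Rpl9, Rps29, Rpl38, Rpl35a, Rpl37 and Rpl39, so that these values may belong to a copy of the gene and are uncertain. Of the 75 rows on the RefSeq chromosome, 16 rose, 74 had a log2 fold change above 0, and the median was 0.69. Of the 16 on another, 4 rose (Rps13, Rpl37, Rpl39 and 1 row of Rps19l2), 14 were above 0, and the median was 0.40. Rps27a, which encodes a ubiquitin fused to a ribosomal protein, had a row on chromosome 14 that rose (1.06 ± 0.19, edgeR adjusted p = 0.0374) and a row on chromosome 5 that did not pass (0.44 ± 0.20, edgeR adjusted p = 0.186). Of Rps19l2, the row on chromosome 9 rose (1.08 ± 0.20, edgeR adjusted p = 0.0377) and the row on chromosome 1 had a log2 fold change of 0.27. One of the 2 Rpl7a rows on chromosome 3 had a high value that missed the threshold (1.11 ± 0.35, edgeR adjusted p = 0.0933).

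The 4 values below 0 were those of Rpl3l, Rpl10l, Rpl35a and the Rpl21 row on chromosome 3. That Rpl21 row had an FPKM of 0.895 to 10.7 (-1.03 ± 0.91, edgeR adjusted p = 0.457), and the other 3 Rpl21 rows had log2 fold changes of 0.28 to 0.64. Rpl35a had an FPKM of 67.0, 83.3 and 117 in sham and 86.5, 47.5 and 39.9 in ischemia (-0.70 ± 0.37, edgeR adjusted p = 0.226). Its groups overlapped through ischemia 1, without which its edgeR adjusted p was 0.0494. Over the 18 rows with repeated symbols, 2 rose and the median was 0.51, and over the 77 with a symbol of their own, 18 rose and the median was 0.68.

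Ribosome genes whose symbols lie outside the pattern did not pass with edgeR, and DESeq2 called 2 rows higher. The 4 rows of Rpsa, Fau and Rack1 were at a median of 0.60 on the log2 fold change scale, and 3 were above 0. In 2 of them, Rpsa and the Rack1 row on chromosome 10 (log2 fold change 0.56), every ischemia sample was above every sham sample. The Rack1 row on chromosome 12 had an FPKM of 0.580 to 0.998, and the RefSeq start used for Rack1 lay on chromosome 10. No RefSeq start was found for Fau on chromosome 6, where its row lay. The values of Fau and of the Rack1 row on chromosome 12 may thus belong to copies and are uncertain. Rpsa, a small subunit protein, had an FPKM of 745, 642 and 895 in sham and 1428, 1363 and 1398 in ischemia (0.80 ± 0.21, edgeR adjusted p = 0.0659).

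Among other translation genes known for TOP mRNAs, 4 of 16 rose, 0 fell, and 15 were above 0, with a median of 0.57. Of all tested genes, 5.18% rose and 49.9% were above 0. Of the whole list, Rpsa, Fau and Rack1 included, 15 symbols had a RefSeq start, and 5 had the tract as defined above. Among the called genes Eef1b2 had it, and Npm1 and Btf3 did not. Npm1, a nucleolar chaperone of ribosome assembly, had an FPKM of 68.2, 29.6 and 61.8 in sham and 154, 333 and 197 in ischemia (2.03 ± 0.36, edgeR adjusted p = 0.0372). Pabpc1, which binds poly(A) tails, had 51.3, 39.8 and 61.5 against 141, 270.0 and 169 (1.84 ± 0.27, edgeR adjusted p = 0.0298). The elongation factor subunit Eef1b2 rose by 1.26 ± 0.17 (edgeR adjusted p = 0.0272) and Btf3, of the nascent chain-associated complex, by 0.85 ± 0.16 (edgeR adjusted p = 0.0381).

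Of 14 regulators of TOP mRNAs in the mTORC1 pathway, 2 rose, 0 fell, and the median was -0.02. Eif4ebp1, a repressor of cap-dependent initiation, had an FPKM of 69.7, 51.9 and 84.7 against 173, 195 and 193 (1.38 ± 0.18, edgeR adjusted p = 0.0272). Ddit4, a stress-induced inhibitor of mTORC1, had 15.2, 13.0 and 16.4 against 44.9, 59.1 and 29.5 (1.48 ± 0.24, edgeR adjusted p = 0.0327). Of the 14, 7 were above 0 and 7 below. In 4, every ischemia sample was below every sham sample, against 19.1% of all tested genes. These were Deptor (-0.79), Rptor (-0.59), Tsc1 (-0.50) and Eif4ebp2 (-0.42), with an edgeR adjusted p of 0.178, 0.139, 0.151 and 0.195. Larp1 had a log2 fold change of 0.81 ± 0.29 (edgeR adjusted p = 0.121). DESeq2 called 1 of the 14 lower. Of the regulators and the other TOP mRNA genes, 0 passed with edgeR without sham 1, sham 2, sham 3 or ischemia 3, or with the replicate number as a block.

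**Figure D5:**
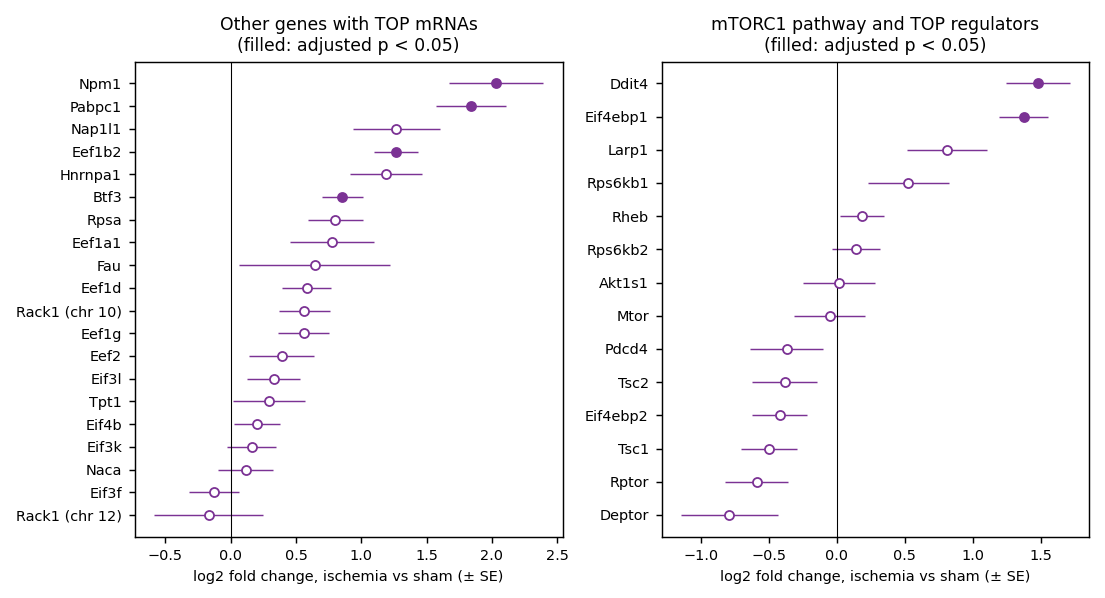
Log2 fold change of ischemia against sham (x axis) with its standard error for 20 rows of genes listed as having TOP mRNAs, ribosome genes outside the symbol pattern included (left, y axis), and 14 regulators of TOP mRNAs (right, y axis). Filled points passed an adjusted p of 0.05, and Npm1 (2.03) and Pabpc1 (1.84) have the highest values.

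Of the 85 symbols with a tested row, 58 had a RefSeq start site on the chromosome of their row. Of these, 34 (58.6%) had the TOP tract as defined above, against 16.4% of 19005 protein-coding promoters and 14 of 59 genes (23.7%) of the mitochondrial ribosome. The ETS-type motif CCGGAAG, on either strand from 250 bases before to 50 after the start, was found in 17 (29.3%), against 11.2% of all promoters and 33.9% of those of the mitochondrial ribosome. TATAAA was found in 7 (12.1%), against 13.1%. Members with and without the TOP tract had median log2 fold changes of 0.69 and 0.70. With and without CCGGAAG these were 0.61 and 0.73, and with and without TATAAA, 1.05 and 0.68. No test was made between them, and the TATAAA group holds 7 genes. An annotated start can miss the main start in this tissue, and the absence of letters in this window says nothing of the factors.

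Neutrophil and monocyte markers were higher in ischemia. Of 14 tested neutrophil and monocyte markers, 12 rose, with a median log2 fold change of 6.07, and DESeq2 called 10 higher. With the replicate number as a block, and in at least 1 fit without 1 sample, 0 of all tested genes were called higher. The summed FPKM of these markers was 169 to 216 in sham, where 2 or 3 of 15 were at 0. It was 2269, 8945 and 2383 in ischemia 1 to 3, where at most 1 was at 0. It was highest in ischemia 2. The members' median log2 ratio there was the lowest of the ischemia samples in TMM-scaled counts (0.61) and the highest in FPKM (0.83, over the 73 abundant members), and their share of all counts was also the highest (3.65%). Of 11 cardiomyocyte markers, 0 passed with edgeR and DESeq2 called 4 lower. Their median was -0.79, 10 were below 0, and in 4 every ischemia sample was below every sham sample, against 19.1% of all tested genes. Their summed FPKM was 37401, 62267 and 35429 in sham 1 to 3 and 17822 to 35933 in ischemia, with none at 0, so that sham 2 was the highest. Summed fibroblast markers ran from 687 to 2237 in sham and from 301 to 690 in ischemia, and 0 of 6 passed with edgeR, while DESeq2 called 1 higher and 3 lower. Atrial (0 of 4) and endothelial (0 of 5) markers did not pass with edgeR or DESeq2, with medians of -3.60 and 0.08. Summed atrial markers were at an FPKM of 48341, 215 and 39203 in sham 1 to 3, and at 1279 to 9610 in ischemia, which lay above sham 2 and below the other sham samples. The part of these cells in the members' values was not tested.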

How the data were processed

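Total RNA of rat myocardium (3 sham, 3 ischemia) was sequenced from stranded total RNA libraries. The authors deposited a table with raw counts per gene and FPKM for each sample. STAR and HTSeq are named in the submitters' processing notes, without versions. The genome build and the counting of strand and of multiply mapped reads were not given in the sources used here, so overlapping or antisense genes and near-identical copies are uncertain.

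The 13964 genes whose FPKM averaged 0.5 or more across the 6 libraries were tested on the deposited counts with edgeR 4.0.16 (R 4.3.3) by the two-sided quasi-likelihood test with TMM scaling. P-values were adjusted by Benjamini and Hochberg over all tested genes, at a threshold of 0.05. Fold changes are ischemia over sham. Standard errors were derived from the F statistic. Levels are given in deposited FPKM. The script was tested on simulated data. Alternatives were DESeq2 1.42.0, limma 3.58.1 on log2(FPKM + 0.1), other scalings and filters, leaving out each sample, a replicate block, and summing rows of a symbol. Libraries held 68529126 counts or more.

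The members and lists were chosen with earlier results of these data known. Genes named were paralog pairs, stalk proteins, a set of well-known members, the 10 called members with the smallest p, the 5 highest and lowest fold changes, and the 3 highest and lowest levels. Of the translation and regulator lists, genes past the threshold were named, and also Larp1 and the regulators below sham in every ischemia sample. Cell type markers are given as counts and sums, and 1 listed gene is not reported here. Rplp0l1 and Rpl30l1 were named because they were not tested, and Rpl21 rows, Rpsa, Fau, Rack1 and the Y-linked and chamber genes for the results that turn on them. Rpl9 and Rpl37 were named for the chromosome of their rows. Promoter sequence came from RefSeq on GRCr8, for symbols on the same chromosome in both. Of the table's coordinates, the chromosome alone was used, in a comparison with RefSeq added after the values were seen.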

Additional observations from a re-analysis of the deposited data

How the results depend on the processing

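The count of 20 members called higher was 71 with DESeq2, 8 with no expression filter, 9 with total-count scaling, 13 with upper-quartile scaling, 0 with the replicate block, and 0 to 17 without 1 sample. Members called lower numbered 0 to 1 without 1 sample (Rpl35a, without ischemia 1). In the fits with 0 calls, 50 (block) and 53 to 68 (without 1 sample) members were higher at an unadjusted p under 0.05. Over all genes, 723 were called higher and 214 lower. DESeq2 gave 2071 and 1742, no filter 93 lower, total-count scaling 83 lower, the block 0 and 0 (3349 at an unadjusted p under 0.05), and fits without 1 sample 0 to 1490 and 0 to 1115. Samples that share a number did not deviate together (mean correlation -0.14), so the number was not taken as a pairing. The members' median of 0.68 was 0.77, 0.76 and 0.77 with limma at pseudocounts of 0.1, 1 and 0.01, 0.75 with total-count scaling, and 0.64 to 0.71 without 1 sample. For the large subunit these were 0.73, 0.73, 0.73, 0.73 and 0.62 to 0.68, and for the small subunit 0.81, 0.80 and 0.82 with limma and 0.67 to 0.77 without 1 sample. Total-count scaling moved the median of all genes to 0.088. Less that median, the members' median stayed between 0.63 and 0.73 in all settings. Ribosome genes outside the pattern had 2 calls with DESeq2. TOP mRNA genes had 10 calls with DESeq2, 0 with the block and 0 to 6 without 1 sample. Regulators had 0 higher with the block, 1 lower with DESeq2, and 0 to 3 higher without 1 sample.

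The Rps29 log2 fold change turned sign (-0.0055 at a mean FPKM of at least 5, -0.027 to 0.12 without 1 sample), and so did those of Rpl3l (0.45, 0.44 and 0.46 with limma, 0.73 with the block, -1.08 to 1.75 without 1 sample), Rpl39l (-1.04 without ischemia 3, up to 2.06 without another sample), the Rpl21 row on chromosome 3 (0.51 with rows summed) and Fau (-0.20 without ischemia 3, up to 1.02 without another sample). The Rpl3l share differed by -23.3 to 12.1 percentage points without 1 sample. The difference in summed counts of 1.45 percentage points was 1.77 without mitochondrial genes and 1.27 to 1.59 without 1 sample. The causes were not tested. With 3 samples a group, a member past the adjusted threshold in the full fit can lose it when 1 sample is left out, so counts of calls are less firm here than direction and median.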
